A study of Sus scrofa with 15 samples.

Results

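Tubulin isotypes are the products of separate genes that encode the alpha and beta subunits of microtubules. A set of 10 symbols was looked up by name among the 43294 features of the expression table: the alpha genes *TUBA1B*, *TUBA1C* and *TUBA4A* and the beta genes *TUBB*, *TUBB2A*, *TUBB2B*, *TUBB3*, *TUBB4A*, *TUBB4B* and *TUBB6*. Of these 10 symbols, 6 matched a row, namely *TUBA1B*, *TUBA4A*, *TUBB*, *TUBB2B*, *TUBB4A* and *TUBB6*, and the remaining 4 were not analysed here. The set was chosen by family, with the rise of *TUBB4A* from SCNT4c to SCNT8c in view, and *TUBB4A* was selected on its values in these groups, so the values of all 6 genes in that comparison, and those of *TUBB4A* wherever SCNT4c or SCNT8c was a group compared, are given as a description with no test.

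The study profiled the RNA of donor pig fetal fibroblasts (PFF) and of somatic cell nuclear transfer (SCNT) embryos in 15 libraries, with 3 in each of 5 groups. PFF were primary cells of passage 2 to 5, grown until contact inhibited, and SCNT4c and SCNT8c were untreated SCNT embryos at the 4-cell and 8-cell stages. SCNT4c-KG were 4-cell SCNT embryos that received *KDM4A* mRNA, encoding a histone H3K9 demethylase, at 1000 ng/μl 5 h after activation and were kept in 0.1 μM GSK126, which inhibits the methyltransferase EZH2 that acts on H3K27, for the first 48 h. SCNT4c-TDG were 4-cell SCNT embryos from puromycin-selected PFF that carried a doxycycline-inducible vector for *TDG*, a thymine DNA glycosylase, and were exposed to 500 ng/ml doxycycline from 40 to 72 h. Each embryo library came from a pool of 30 embryos, so embryos within a library were not separate replicates. In SCNT4c-TDG the vector, the selection and doxycycline cannot be told apart, and in SCNT4c-KG neither can the mRNA and the inhibitor. RNA was isolated with different reagents from embryo pools and from PFF, and in the comparisons with PFF this cannot be told apart from the difference between cells and embryos.

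Alpha and beta tubulin form heterodimers that polymerize into microtubules, and in cleaving embryos these build the spindle of each division. The isotypes share most of their sequence and differ mainly in the tail that ends each protein, which is rich in glutamate and carries many of the tubulin modifications. *TUBB* is the widely expressed class I beta tubulin, *TUBB2B* and *TUBB4A* are best known from the nervous system, and *TUBB6* is a divergent class V beta tubulin. *TUBA1B* is a widely expressed alpha tubulin, and *TUBA4A* encodes an alpha tubulin without the final tyrosine that other alpha tubulins carry.

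The ends of 5 coding sequences, those of *TUBA4A* and the 4 beta genes, are shown because they tell the isotypes apart. Each line gives the last 60 coding bases, stop codon included, on the coding strand of Sscrofa11.1 as annotated by RefSeq, and capitals mark in-frame GAA and GAG codons, which encode glutamate.
TUBA4A: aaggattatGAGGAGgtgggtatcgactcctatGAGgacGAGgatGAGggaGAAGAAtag
TUBB: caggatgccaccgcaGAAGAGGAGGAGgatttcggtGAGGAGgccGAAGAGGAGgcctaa
TUBB2B: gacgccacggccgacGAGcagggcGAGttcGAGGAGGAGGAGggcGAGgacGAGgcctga
TUBB4A: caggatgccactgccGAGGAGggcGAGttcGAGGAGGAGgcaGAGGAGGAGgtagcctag
TUBB6: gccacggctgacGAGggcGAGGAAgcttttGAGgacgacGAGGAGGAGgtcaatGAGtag

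These windows held 9 glutamate codons in *TUBB* and *TUBB4A*, 8 in *TUBB2B* and *TUBB6*, and 7 in *TUBA4A*. In *TUBA4A* the final codon before the stop was a glutamate codon. Among the 4 beta genes the windows were between 57.6% (*TUBB* and *TUBB6*) and 74.6% (*TUBB* and *TUBB4A*) identical, whereas the whole coding sequences were between 82.8% (*TUBB* and *TUBB6*) and 90.4% (*TUBB2B* and *TUBB4A*) identical. The sequences were read from the exons at chr15:121290222-121290281 (minus strand) for *TUBA4A*, chr7:23251230-23251289 (plus) for *TUBB*, chr7:1952944-1953003 (minus) for *TUBB2B*, chr2:72604755-72604814 (plus) for *TUBB4A* and chr6:97234036-97234095 (minus) for *TUBB6*.

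Some isotypes share long stretches with a neighbouring gene, which limits what uniquely mapped reads can show. *TUBA1B* and *TUBA1A*, another alpha tubulin gene on chromosome 5, were 98.6% identical over the coding sequence, and 53.3% of the 150-base windows of *TUBA1B*, 150 bases being the read length, occurred unchanged in *TUBA1A*. *TUBB2B* and *LOC100624785*, annotated as tubulin beta-2A chain on chromosome 7, were 99.0% identical with 49.4% of windows shared. Levels of *TUBA1B* and *TUBB2B* are therefore uncertain by the reads that could not be placed. Beyond these, *TUBB*, *TUBB2B*, *TUBB4A* and *TUBB6* shared no 150-base window with each other, and *TUBA4A* shared none with *TUBA1B*. The span of *TUBA1B* also overlapped by 105 bases that of *LOC100127131*, annotated as tubulin alpha-1C chain on the opposite strand, in which 45.6% of the 150-base windows of *TUBA1B* also occurred and which was listed at 0 in all 15 libraries, and the strand setting of the counting is not stated. *LOC100624785* and *LOC100127131* were named after their values had been seen.

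The values are normalized counts, that is, reads per gene divided by a factor for each library. The recovered depth was 12354649 to 22868038 reads per library, with the lowest depths in SCNT4c-KG. Fibroblast markers (10 genes, among them *COL1A1*, *COL1A2* and *VIM*) summed to 3382920 or more normalized counts in each PFF library and to between 1425 and 4869 in the embryo libraries. Oocyte and early embryo markers (10 genes, of which *GDF9* and *BMP15* were at 0 in all libraries of all 5 groups) summed to at most 21.5 in PFF, 94566 to 112619 in SCNT4c, 35415 to 64785 in SCNT4c-KG, 11610 to 18432 in SCNT4c-TDG and 43124 to 53800 in SCNT8c. Cumulus cell markers (7 of 8 genes matched) summed to 593 to 634 in PFF, 1708 to 2191 in SCNT4c, 952 to 1083 in SCNT4c-KG, 610 to 788 in SCNT4c-TDG and 1536 to 2278 in SCNT8c, with *PTX3* and *AMH* at 0 in the embryos. The targeted genes followed the labels, since *KDM4A* was higher in SCNT4c-KG than in SCNT4c (log2 fold change 3.01) and *TDG* was higher in SCNT4c-TDG (log2 fold change 5.13). Each was also higher in the other treated group, *KDM4A* in SCNT4c-TDG by 2.08 (adjusted p = 0.00375) and *TDG* in SCNT4c-KG by 1.46 (adjusted p = 0.00195). SCNT8c replicate 3 stood apart, with a mean correlation of 0.872 with the SCNT4c libraries and of 0.794 with the other SCNT8c libraries, and the main values of SCNT8c that move with it are given with and without it. The column names of the 3 SCNT4c libraries match the titles of the SCNT4c samples but also occur as the descriptions of the SCNT4c-KG samples. They were assigned to SCNT4c by title, so every value of SCNT4c depends on that assignment, and with no usable replicate number they are called a, b and c. In these columns *KDM4A* was at 134 to 313 normalized counts, against 1429 to 1476 in those named for SCNT4c-KG.

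Among the beta genes, *TUBB* was the most abundant in every library (the plot of levels by group). In PFF its normalized counts were 40275, 42217 and 38976, in SCNT4c 4779, 9004 and 11285, in SCNT4c-KG 27428, 25360 and 29101, in SCNT4c-TDG 9383, 11248 and 6570, and in SCNT8c 17447, 23532 and 7643. The PFF libraries lay above all embryo libraries, the SCNT4c-KG libraries lay above those of every other embryo group, and SCNT4c and SCNT4c-TDG overlapped. SCNT8c replicates 1 and 2 lay above SCNT4c, and replicate 3 lay within its range. The order of the means was PFF (40490 ± 1631, SD, n = 3), SCNT4c-KG (27297 ± 1874), SCNT8c (16207 ± 8017, or 20489 without replicate 3), SCNT4c-TDG (9067 ± 2355) and SCNT4c (8356 ± 3301), of which the last 3 did not separate beyond their spread. In bulk libraries like these, fewer cells with a transcript and less of it per cell cannot be told apart.

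*TUBB2B* was high in the fibroblasts and in SCNT4c-KG and low elsewhere. Its normalized counts were 1883, 1773 and 1729 in PFF and 1534, 841 and 570 in SCNT4c-KG. In SCNT4c they were 140, 154 and 66.4, in SCNT4c-TDG 150, 137 and 132, and in SCNT8c 69.1, 63.2 and 66.6. Every SCNT4c-KG library was thus above every library of the other embryo groups and below every PFF library, with a spread within SCNT4c-KG (982 ± 497, SD, n = 3) wider than in PFF (1795 ± 78.9). *LOC100624785* stood in the same order, at 3441, 3778 and 3380 in PFF, 4188, 2376 and 1361 in SCNT4c-KG, 241, 177 and 101 in SCNT4c, 442, 378 and 360 in SCNT4c-TDG and 64.4, 84.0 and 113 in SCNT8c, except that PFF and SCNT4c-KG overlapped and SCNT4c-TDG lay above SCNT4c. Since the pair shares sequence, these are not independent readings.

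*TUBB4A* was the isotype with its highest mean in the 8-cell embryos. The counts were 359, 995 and 96.1 in SCNT8c and 20.5, 9.61 and 27.4 in SCNT4c, the latter from 26, 11 and 33 reads. In SCNT4c-KG they were 204, 239 and 204, in SCNT4c-TDG 66.1, 67.5 and 15.3, and in PFF 59.9, 53.5 and 77.5. All 3 SCNT8c libraries lay above all 3 SCNT4c libraries, but they spread widely among themselves and enclosed the SCNT4c-KG range. The mean in SCNT8c was 25.2 times that in SCNT4c with all libraries and 35.3 times without SCNT8c replicate 3 (log2 differences 4.13 and 5.01). Without SCNT8c replicate 2, the highest library, it was 11.9 times (log2 difference 3.33), and the SCNT8c mean of 228 was then close to that of SCNT4c-KG (216). SCNT4c-TDG overlapped both PFF and SCNT4c.

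*TUBB6* was close to the detection limit. It had 6, 7 and 10 reads in PFF (7.33, 8.92 and 11.9 normalized counts) and 10, 9 and 14 reads in SCNT4c-KG (16.3, 11.4 and 19.9 normalized counts), and no read in the 9 libraries of SCNT4c, SCNT4c-TDG and SCNT8c. Against a floor of 3 reads per library, which covers counting error only, *TUBB6* was at least 6.38-fold higher in SCNT4c-KG than in SCNT4c and at least 3.77-fold higher in PFF than in SCNT4c. The locus also held 3 assembled transcripts with up to 150 normalized counts, and with these added SCNT4c was at 56.8, 74.3 and 70.6 and SCNT4c-KG at 39.2, 24.1 and 38.5, so the order of these groups turned in the sum. The same locus held *PRELID3A*, *SPIRE1* and *AFG3L2*, so the assembled transcripts need not belong to *TUBB6*.

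Of the alpha genes, *TUBA1B* was high in every library. Its normalized counts were 20032, 21000 and 18251 in PFF, 3530, 3478 and 4715 in SCNT4c, 4780, 3764 and 6341 in SCNT4c-KG, 2530, 2613 and 1690 in SCNT4c-TDG and 5654, 7462 and 2211 in SCNT8c. PFF lay above all embryo libraries, SCNT4c-TDG lay below SCNT4c and SCNT4c-KG, and SCNT4c, SCNT4c-KG and SCNT8c overlapped. The *TUBA1B* mean in SCNT8c was 5109, or 6558 without replicate 3. *TUBA4A* ran the other way. It was at 9.77, 20.4 and 9.53 in PFF (8, 16 and 8 reads), 190, 194 and 198 in SCNT4c, 420, 234 and 477 in SCNT4c-KG, 42.6, 85.9 and 105 in SCNT4c-TDG and 113, 105 and 98.3 in SCNT8c. It was lowest in PFF, highest in SCNT4c-KG, and overlapped between SCNT4c-TDG and SCNT8c.

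**Figure D1:**
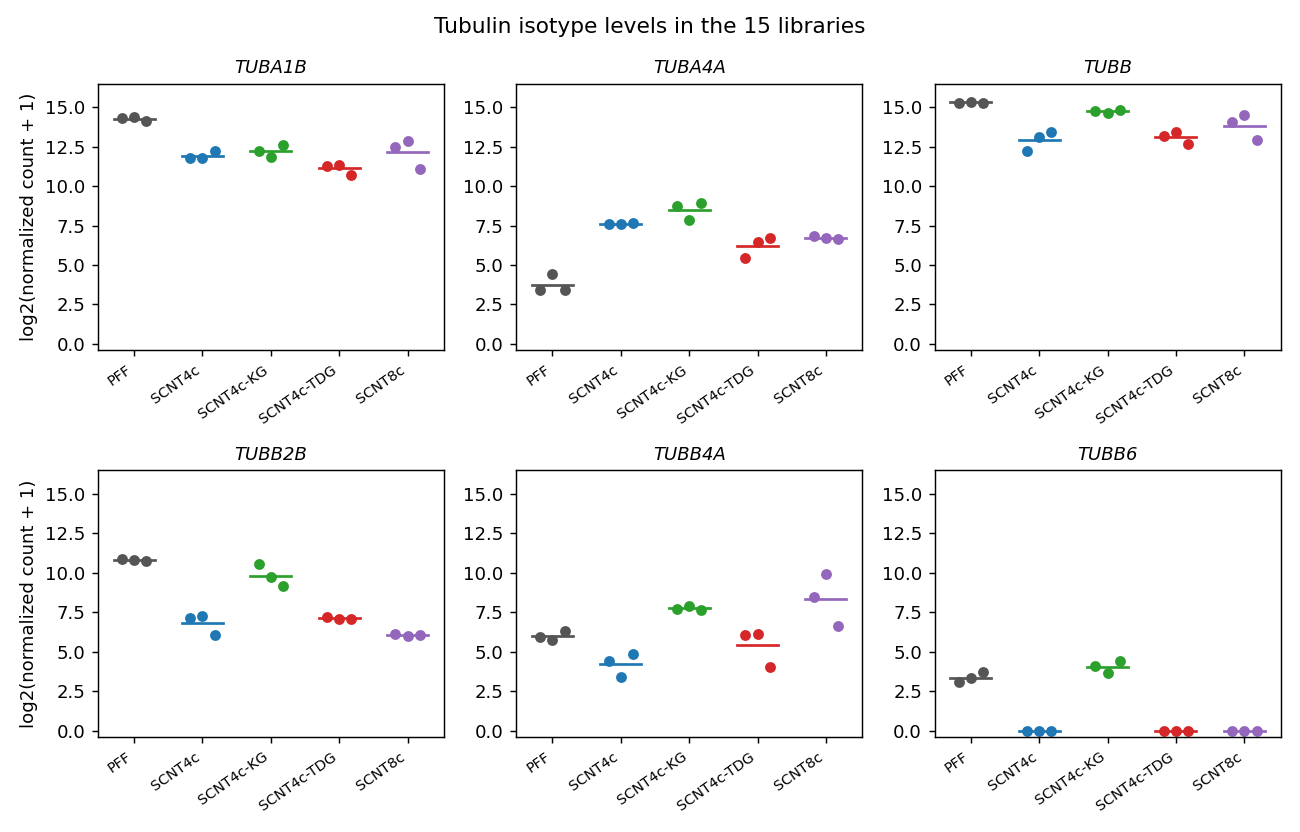
Levels of the 6 tubulin genes as log2(normalized count + 1) on the vertical axis, with 1 point per library, a line at the mean of each group of 3 libraries, and the 5 groups along the horizontal axis. *TUBB*, *TUBB2B* and *TUBA1B* are highest in PFF, *TUBA4A* is lowest there, *TUBB4A* is highest on average in SCNT8c, and *TUBB6* has reads only in PFF and SCNT4c-KG.

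To compare isotypes with each other, counts were divided by exon length. They were expressed as a share of the summed level per kilobase of the beta genes, or of the alpha genes, among the 6 analysed. Other tubulin genes with a row, among them *TUBA1A*, *LOC100624785* and *TUBB1*, were left out of these sums. The beta gene *TUBB1* averaged 65.2 normalized counts in SCNT4c, where *TUBB4A* averaged 19.2. *TUBB* made up 91.7% to 98.9% of the beta level in all 15 libraries. The remainder differed in composition. In PFF it was, among these 4 beta genes, almost all *TUBB2B* (6.12% ± 0.307, SD, n = 3), with *TUBB4A* at 0.146% ± 0.0341. In SCNT8c *TUBB4A* (1.99%, 4.00% and 1.21% of the beta level per kilobase) stood above *TUBB2B* (0.568%, 0.378% and 1.25%) in replicates 1 and 2 and slightly below it in replicate 3. *TUBB2B* exceeded *TUBB4A* in all libraries of the other 4 groups. In SCNT4c-KG *TUBB2B* held 4.98% ± 2.41 and *TUBB4A* 0.741% ± 0.120 of the beta level, and in SCNT4c *TUBB2B* held 2.48% ± 1.64 and *TUBB4A* 0.249% ± 0.151. In SCNT4c-TDG the shares were 2.30% ± 0.565 and 0.493% ± 0.238. With *LOC100624785* counted as a beta gene, the *TUBB* share was 83.4% ± 0.0389 in PFF, 83.0% ± 7.33 in SCNT4c-KG, 93.7% ± 4.39 in SCNT4c, 91.1% ± 1.72 in SCNT4c-TDG and 95.8% ± 0.954 in SCNT8c.

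*TUBA4A*, the isotype without a terminal tyrosine, took 0.0515% to 0.102% of the alpha level per kilobase in PFF and 1.46% to 8.48% in the 12 embryo libraries, so the fibroblasts and embryos did not overlap in this share. It was 5.06% ± 0.708 in SCNT4c, 7.33% ± 1.17 in SCNT4c-KG, 3.75% ± 2.22 in SCNT4c-TDG and 2.67% ± 1.60 in SCNT8c, where it was 1.76% without replicate 3. These shares depended on *TUBA1A*. With it included, *TUBA4A* held 0.0379% in PFF, 2.54% ± 0.290 in SCNT4c, 2.56% ± 0.325 in SCNT4c-KG, 2.07% ± 1.23 in SCNT4c-TDG and 1.16% ± 0.727 in SCNT8c (0.750% without replicate 3), so SCNT4c and SCNT4c-KG no longer differed beyond their spread while PFF stayed below all embryo libraries. On the same basis *TUBA1B* held 54.2% ± 0.579 of the alpha level in PFF, 47.8% ± 2.04 in SCNT4c and 32.6% ± 2.22 in SCNT4c-KG, where *TUBA1A* held 64.9% ± 2.04. The level of *TUBB* per kilobase relative to that of *TUBA1B* was 1.35 ± 0.0476 in PFF, 1.39 ± 0.438 in SCNT4c, 2.13 ± 0.130 in SCNT8c, 2.61 ± 0.202 in SCNT4c-TDG and 3.75 ± 0.709 in SCNT4c-KG. This ratio was higher in every library of SCNT4c-KG, SCNT4c-TDG and SCNT8c than in any library of PFF or SCNT4c. With *TUBA1B*, *TUBA4A* and *TUBA1A* summed as the alpha level, the ratio of *TUBB* to it was 0.733 ± 0.0286 in PFF, 0.664 ± 0.204 in SCNT4c, 0.894 ± 0.0620 in SCNT8c, 1.38 ± 0.261 in SCNT4c-TDG and 1.23 ± 0.312 in SCNT4c-KG, so SCNT4c-KG and SCNT4c-TDG then overlapped. No test was made on the shares or the ratios.

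**Figure D2:**
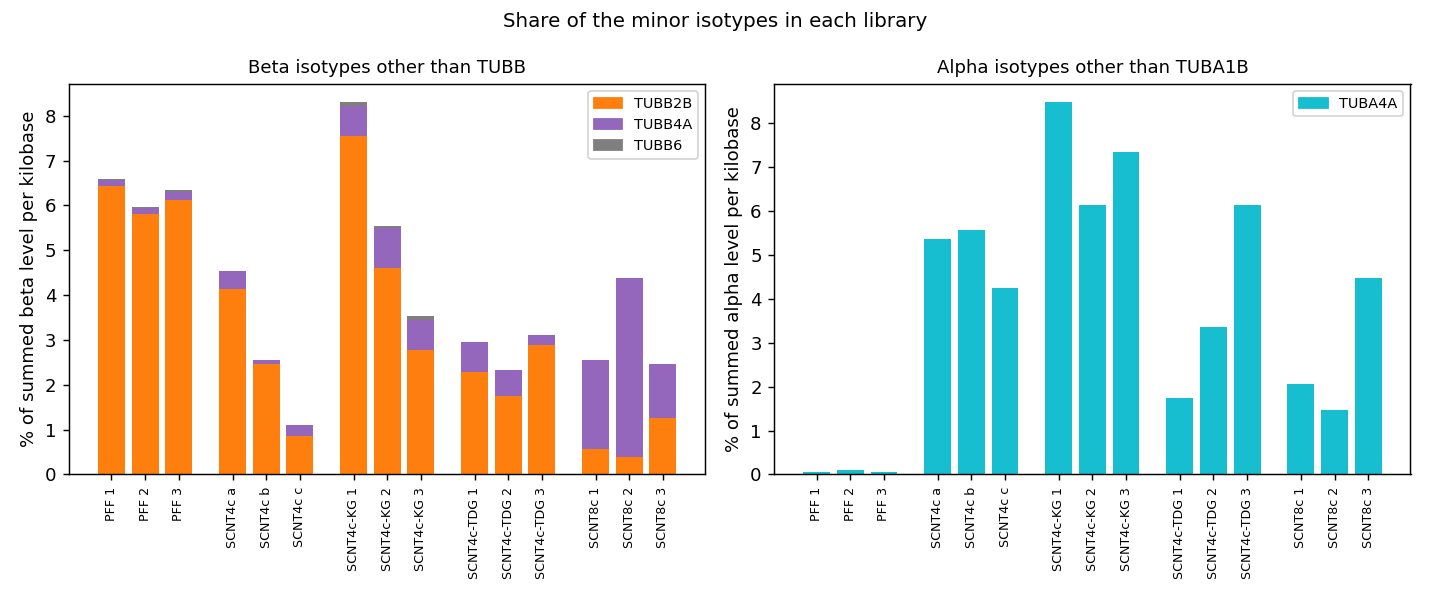
Share of the minor isotypes in each of the 15 libraries, as a percentage of the summed beta level per kilobase (left, stacked bars for *TUBB2B*, *TUBB4A* and *TUBB6*) and of the summed alpha level per kilobase (right, *TUBA4A*). The rest of each bar up to 100% is *TUBB* on the left and *TUBA1B* on the right. *TUBB4A* makes up most of the minor beta level in SCNT8c replicates 1 and 2, and *TUBA4A* is at most 0.102% in PFF.

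The comparison of SCNT4c-KG with SCNT4c set 4-cell embryos given *KDM4A* mRNA and GSK126 together against untreated ones. *TUBB* and *TUBB2B* rose, by 1.79 ± 0.39 (log2 fold change ± SE, adjusted p = 0.00239) and by 2.99 ± 0.47 (adjusted p = 0.000193). *TUBA1B* had a log2 fold change of 0.33 ± 0.39 (adjusted p = 0.528) and *TUBA4A* one of 0.89 ± 0.46 (adjusted p = 0.136). *TUBA4A* did not overlap between the groups, and DESeq2 on the recovered reads called it (log2 fold change 1.11, adjusted p = 0.0294). Hence 2 of the 4 tested genes were called, both higher, where 37.2% of the 18942 features tested were called and 17.6% were called higher. Of the same 4 genes 3 did not overlap between the groups, against 53.9% of all features. *TUBB4A*, not tested here, was 11.2 times as high in SCNT4c-KG as in SCNT4c by its means, with no overlap. The near-identical partners rose as well, *TUBA1A* by 1.27 (adjusted p = 0.0241) and *LOC100624785* by 3.86 (adjusted p = 1.53e-05). The fibroblast markers moved both ways. Of 7 tested, *VIM* (1210 to 1663 in SCNT4c-KG and 272 to 619 in SCNT4c) and *THY1* (428 to 843 and 69.7 to 170) were called higher and *COL1A2*, *COL3A1* and *DCN* lower, and the summed level of the list was 2363 to 3502 in SCNT4c-KG and 3719 to 4869 in SCNT4c. The sums of oocyte and early embryo markers and of cumulus markers were lower in SCNT4c-KG, with no overlap, but *ZP3* (a mean of 667 against 28.1), *OOEP* (1406 against 708) and *TLE6* (2.34 against 0) of the oocyte list were higher in every SCNT4c-KG library. The part of these markers in the results was not tested.

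SCNT4c-TDG was set against the same SCNT4c libraries, so the 2 comparisons share their controls. Only *TUBA4A* fell, by 1.40 ± 0.46 on the log2 scale (adjusted p = 0.0278), making 1 of 4 tested genes called, against 33.3% of features called and 17.6% called lower. The call did not hold under quantile normalization, an equal total per library, edgeR or DESeq2, nor without any 1 of the 3 SCNT4c libraries or SCNT4c-TDG replicate 1 or 2, with adjusted p-values between 0.0511 and 0.142. *TUBA1B* was at -0.79 ± 0.39 (adjusted p = 0.128), *TUBB* at 0.17 ± 0.39 (adjusted p = 0.764) and *TUBB2B* at 0.30 ± 0.47 (adjusted p = 0.647). The 95% confidence interval of the difference ran from -0.661 to 1.003 for *TUBB* and from -0.69 to 1.29 for *TUBB2B*, so changes inside these intervals remain compatible with the data. *LOC100624785*, the partner of *TUBB2B*, was higher in SCNT4c-TDG (1.26, adjusted p = 0.0435), while *TUBA1A*, the partner of *TUBA1B*, did not pass (-1.06, adjusted p = 0.0566). The summed fibroblast (1425 to 1819), oocyte and early embryo, and cumulus markers were all lower in SCNT4c-TDG than in SCNT4c, with no overlap. Single markers went the other way, *VIM* at 647 to 927 against 272 to 619, *ZP3* at 73.6 to 75.9 against 9.96 to 51.6, and *PDGFRB* at 2.30 to 6.12 against 0. Their part in these results was not tested. The 2 alpha genes did not overlap between the groups, against 58.4% of all features. *TUBB4A* was at 49.6 ± 29.7 in SCNT4c-TDG and 19.2 ± 8.97 in SCNT4c.

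Set directly against SCNT4c-KG, SCNT4c-TDG had lower levels of *TUBB*, *TUBB2B* and *TUBA4A*. The log2 fold changes were -1.62 ± 0.39 for *TUBB* (adjusted p = 0.0105), -2.69 ± 0.47 for *TUBB2B* (adjusted p = 0.00141) and -2.29 ± 0.46 for *TUBA4A* (adjusted p = 0.00342). These were 3 of 5 tested genes, all lower, where 16.2% of features were called and 9.13% were called lower. All 5 tested genes had non-overlapping groups, as did 44.4% of all features. *TUBB4A* (-2.36 ± 0.79, adjusted p = 0.0532) and *TUBA1B* (-1.12 ± 0.39, adjusted p = 0.0619) did not pass the test. The spread in this fit also drew on the SCNT4c and SCNT8c libraries that *TUBB4A* was selected on. Both passed when the groups were fitted without the other embryo libraries (adjusted p = 0.00661 and 0.00409), a fit that called 27.5% of all features. Across the 17 alternatives *TUBB4A* was called in 6 (adjusted p from 0.00337 to 0.226), among them DESeq2 (0.0373) but not edgeR (0.0976), and *TUBA1B* in 3 (adjusted p from 0.00409 to 0.237), which included neither tool. The *TUBB* call was lost without SCNT4c-TDG replicate 3 (-1.41, adjusted p = 0.0602) and under quantile normalization (-0.96, adjusted p = 0.106). The summed fibroblast, oocyte and early embryo, and cumulus markers were each lower in SCNT4c-TDG with no overlap, though *PDGFRB* among the fibroblast markers was higher, and their part in these differences was not tested.

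Fibroblasts differed from the untreated 4-cell embryos in all 4 tested isotypes. PFF had higher *TUBB* (log2 fold change 2.36 ± 0.31, adjusted p = 0.000503), *TUBA1B* (2.35 ± 0.14, adjusted p = 1.44e-05) and *TUBB2B* (3.98 ± 0.34, adjusted p = 7.03e-05), and lower *TUBA4A* (-3.86 ± 0.35, adjusted p = 9.01e-05). The background was high, since 78.2% of the 19287 features tested were called in this comparison, 38.5% higher and 39.7% lower, so 4 of 4 is near it. *TUBB4A*, as a description, was 3.32 times as high in PFF as in SCNT4c by its means.

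Against SCNT4c-KG the fibroblasts stood closer in *TUBB* and *TUBB2B*, both of which were higher in SCNT4c-KG than in SCNT4c. In PFF against SCNT4c-KG, *TUBA1B* was higher (2.02 ± 0.19, adjusted p = 0.000138), *TUBA4A* lower (-4.75 ± 0.43, adjusted p = 0.000114) and *TUBB4A* lower (-1.76 ± 0.23, adjusted p = 0.00062), whereas *TUBB* (0.57 ± 0.06, adjusted p = 0.000279) and *TUBB2B* (0.99 ± 0.36, adjusted p = 0.0411) stayed under the 2-fold limit. Thus 3 of these 5 genes were called, against 76.9% of features. *TUBB6*, with 6 to 14 reads a library, entered the fit only through SCNT4c-KG and is not counted (-0.69 ± 0.36, adjusted p = 0.118). *TUBB4A* was the only beta isotype called lower in PFF here, at 53.5 to 77.5 against 204 to 239 in SCNT4c-KG, and *TUBB6* also had a lower mean in PFF. *TUBB2B* exceeded the limit without SCNT4c-KG replicate 1 (1.37, adjusted p = 0.00254). The small differences in *TUBB* and *TUBB2B* depended on the scaling, since *TUBB* was at 0.04 with an equal total per library (adjusted p = 0.703) and *TUBB2B* at 0.0049 under quantile normalization (adjusted p = 0.99), and neither passed by edgeR or DESeq2.

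Against SCNT4c-TDG, PFF had higher *TUBA1B* (3.14 ± 0.17, adjusted p = 3.3e-06), *TUBB* (2.19 ± 0.18, adjusted p = 2.67e-05) and *TUBB2B* (3.68 ± 0.12, adjusted p = 4.5e-07), and lower *TUBA4A* (-2.46 ± 0.47, adjusted p = 0.00202). *TUBB4A* did not pass (0.60 ± 0.59, adjusted p = 0.364, 95% confidence interval -0.81 to 2.00), and its direction turned under 3 of the other scalings and tools and without SCNT4c-TDG replicate 3. The 4 of 5 genes called compare with 79.6% of features. Against SCNT8c, PFF had higher *TUBA1B* (2.12 ± 0.44, adjusted p = 0.00519), *TUBB* (1.47 ± 0.40, adjusted p = 0.0155) and *TUBB2B* (4.74 ± 0.25, adjusted p = 2.73e-05) and lower *TUBA4A* (-2.98 ± 0.43, adjusted p = 0.00107), 4 of 4 genes against 70.5% of features. The standing of *TUBB* there was less firm, because without SCNT8c replicate 3 its log2 fold change was 0.998, just under the limit. It also lost the call without any 1 of the PFF libraries (adjusted p = 0.0537 to 0.0579), under quantile normalization (1.03, adjusted p = 0.0919), with an equal total per library (0.79, adjusted p = 0.162), by edgeR (0.76, adjusted p = 0.115) and by DESeq2 (0.77, adjusted p = 0.0577). Without that library *TUBA1B* (1.60), *TUBB2B* (4.74) and *TUBA4A* (-3.03) were still called. *TUBB4A* was 7.60 times as high in SCNT8c as in PFF by its means, as a description, and 3.58 to 10.6 times with each SCNT8c library left out in turn.

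The level to which all features were scaled matters for these folds. Between the authors' scaling, quantile normalization, an equal total per library, edgeR and DESeq2, the median log2 fold change over all features ranged from -1.01 to 0.03 in PFF against SCNT4c, from -1.10 to 0.12 against SCNT4c-TDG and from -0.39 to -0.09 in SCNT4c-KG against SCNT4c. Relative to that median, *TUBB* stood at 2.08 to 2.66 and *TUBA4A* at -3.79 to -3.54 in PFF against SCNT4c. In SCNT4c-KG against SCNT4c *TUBB* stood at 1.63 to 2.097 and *TUBB2B* at 3.27 to 3.39, and in PFF against SCNT8c *TUBB* stood at 1.14 to 1.53.

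**Figure D3:**
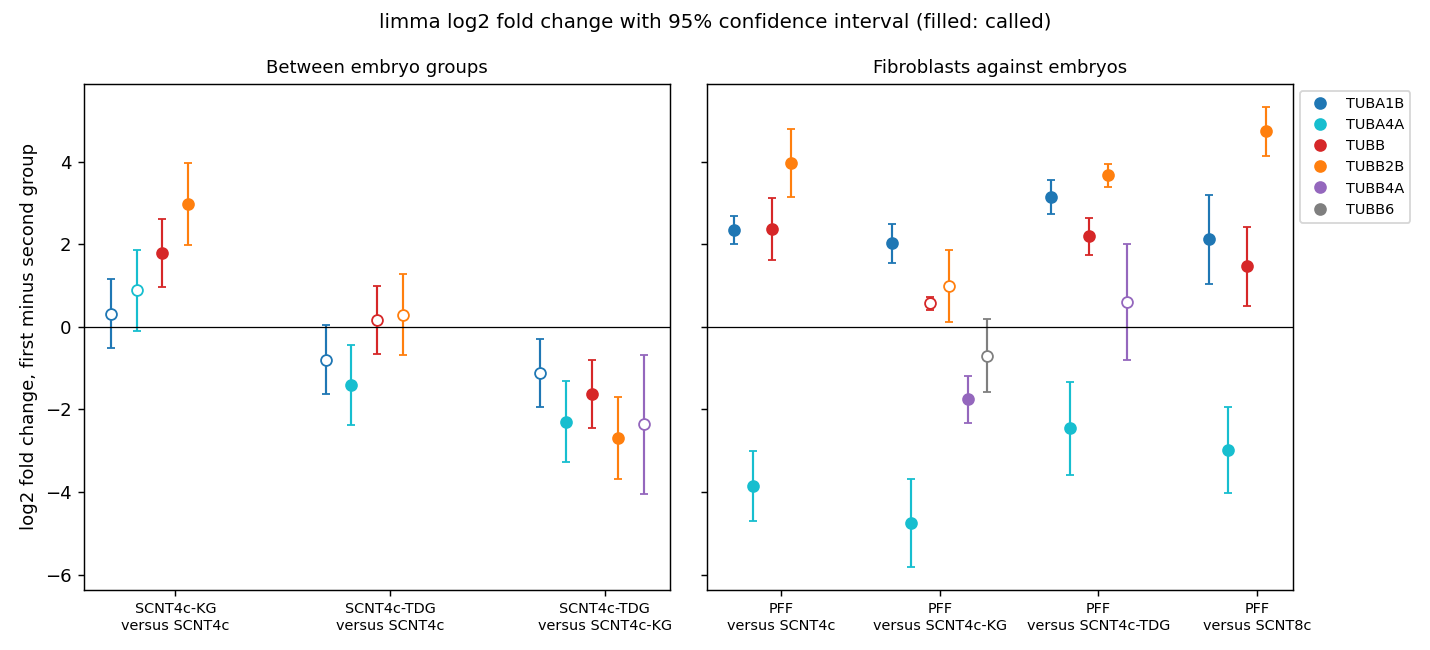
log2 fold changes from limma (points, first minus second group) with 95% confidence intervals (bars) for the tubulin genes tested in each comparison of 3 against 3 libraries, with comparisons between embryo groups on the left and PFF against embryos on the right. Filled points were called, with adjusted p under 0.05 and a fold change over 2. *TUBB2B* is called in 5 of the 6 comparisons that involve SCNT4c-KG or PFF, and *TUBA4A* lies below 0 in all 4 comparisons with PFF.

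From SCNT4c to SCNT8c the isotypes other than *TUBB4A* differed by less. By the log2 differences, with all libraries and without SCNT8c replicate 3, *TUBB* was at 0.90 and 1.37, *TUBA1B* at 0.23 and 0.75, *TUBA4A* at -0.88 and -0.83 and *TUBB2B* at -0.76 and -0.76. The *TUBA4A* libraries did not overlap (98.3 to 113 in SCNT8c and 190 to 198 in SCNT4c), and those of *TUBB*, *TUBA1B* and *TUBB2B* did. For reference, 5.79% of all features were called in this comparison and 23.5% did not overlap, and nothing is read from that for genes chosen with it in view. The called share itself was not stable, since it was 32.3% without SCNT8c replicate 3, and leaving out each library in turn gave 31 to 6133 called features in place of 1096.

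The genes whose levels ran most like *TUBB4A* over the 12 embryo libraries were *NAT9* (Pearson r = 0.961), *MAP3K21* (0.936), *POLA2* (0.932), *TMEM59* (0.932) and *ATG4B* (0.925), out of 9810 known genes ranked, with *MED8* level with the last of them. By Spearman rho only *TMEM59* of these stayed among the first 5. *POLA2*, a subunit of the DNA polymerase alpha complex, averaged 306 normalized counts in SCNT4c, 1047 in SCNT4c-KG, 554 in SCNT4c-TDG and 1097 in SCNT8c (1333 without replicate 3). *NAT9* averaged 417, 1219, 532 and 1874 in the same groups (2267 in SCNT8c without replicate 3). The points share libraries and scaling, and they include the SCNT4c and SCNT8c libraries that *TUBB4A* was selected on. All correlations given here are therefore descriptive. Without SCNT8c replicate 3 the r of these 5 genes was 0.930 to 0.966. Among the isotypes themselves, *TUBB4A* followed *TUBB* (r = 0.795 over the 12 libraries) more closely than *TUBA4A* (r = 0.0839) or *TUBB2B* (r = 0.173), and its r was 0.638 with *TUBA1B* and 0.396 with *TUBB6*. The highest r between any 2 of the 6 genes was that of *TUBB2B* and *TUBB6* (0.918), where *TUBB6* was at 0 in 9 of the 12 libraries, and that of *TUBB2B* and *TUBA4A* was 0.671.

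The remaining genes of the tubulin pathway were described by lists, each read against the share of all features called. Other tubulins (14 genes, 4 tested) included *TUBA1A*, *TUBD1* and *TUBE1*, the last 2 encoding the delta and epsilon tubulins of centrioles. In SCNT4c-KG against SCNT4c 2 of the 4 were called, beside 37.2% of all features. *TUBD1* fell (-2.62 ± 0.40, adjusted p = 0.000152) while *TUBA1A* rose. In SCNT4c-TDG against SCNT4c limma called 0 of the 4 tested genes, beside 33.3% of all features, with 2 at an unadjusted p under 0.05, 0 called by edgeR and 0 by DESeq2. In PFF against SCNT4c 3 of the 4 were called, beside 78.2% of all features. *TUBA1A* was higher (2.05 ± 0.11) and *TUBE1* (-3.57 ± 0.25) and *TUBD1* (-1.80 ± 0.29) were lower.

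Newly made tubulin is folded by prefoldin, the CCT chaperonin and the tubulin cofactors. Of the 21 genes of this list 14 were tested between embryo groups, and in SCNT4c-KG 7 were higher and 1 was lower than in SCNT4c, where 17.6% of all features were called higher and 19.6% lower. The prefoldin subunit *PFDN1* rose by 3.89 ± 0.36 (adjusted p = 1.46e-06) and cofactor A, *TBCA*, by 2.63 ± 0.49 (adjusted p = 0.000795). In SCNT4c-TDG 4 were higher and 2 lower, beside 15.7% and 17.6% of all features, with *TBCA* at 3.54 ± 0.49 and *PFDN1* at 2.64 ± 0.36. Each of these counts, and that for PFF, includes the prefoldin subunit *VBP1*, which reached the minimum mean only through the groups where it was higher, so no fold is given for it. It averaged 5.16 normalized counts in SCNT4c, 123 in SCNT4c-KG, 258 in SCNT4c-TDG and 240.0 in PFF. *TBCA* averaged 69.5 normalized counts in SCNT4c, 437 in SCNT4c-KG, 807 in SCNT4c-TDG and 1644 in PFF. Of 15 tested in PFF against SCNT4c, 8 were higher and 3 lower, where 78.2% of all features were called, 38.5% higher and 39.7% lower. Among them were *TBCA* (4.59 ± 0.25) and the chaperonin subunit *CCT4* (2.52 ± 0.27).

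The gamma-tubulin ring complex nucleates microtubules. Of its 9 listed genes 6 were tested between embryo groups, with the same shares of all features as background, of which 2 were lower in SCNT4c-KG, *TUBGCP4* (-1.98 ± 0.38) and *NEDD1* (-1.89 ± 0.28), and 1 higher and 1 lower in SCNT4c-TDG, *MZT1* (1.86 ± 0.57) and *TUBGCP4* (-2.07 ± 0.38). In PFF against SCNT4c, with 38.5% of all features called higher and 39.7% lower, 3 of 7 were higher, *TUBGCP2* (4.81 ± 0.90), *TUBGCP3* (3.95 ± 0.54) and *TUBGCP6*, and 4 were not called. *TUBGCP6* reached the minimum mean only through PFF, with means of 50.8 in PFF and 1.84 in SCNT4c.

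Enzymes that modify tubulin act largely on the tails shown above. Of 22 genes 13 were tested, with 3 higher and 1 lower in SCNT4c-KG and 3 higher in SCNT4c-TDG, both against SCNT4c, beside 37.2% and 33.3% of all features called. Each count of 3 includes *TTLL5*, which reached the minimum mean only through groups other than SCNT4c. Without it 2 were higher in each comparison. *TTL*, the ligase that adds the final tyrosine to alpha tubulin, was higher in SCNT4c-KG (1.39 ± 0.52, adjusted p = 0.0469) and in SCNT4c-TDG (1.99 ± 0.52, adjusted p = 0.00839). *SVBP*, the partner of the vasohibin carboxypeptidases, was higher in SCNT4c-TDG (1.61 ± 0.57, adjusted p = 0.0401). *TTLL5*, a glutamylase, was listed at 0 in the 3 SCNT4c libraries, at 4.90, 19.0 and 42.7 in SCNT4c-KG and at 44.4 to 45.3 in SCNT4c-TDG, and by its means was at least 8.92-fold higher in SCNT4c-KG and at least 18-fold higher in SCNT4c-TDG against a floor of 3 reads per library. The 4.90 in SCNT4c-KG was itself only 3 reads. *SIRT2*, a tubulin deacetylase, rose in SCNT4c-KG (1.82 ± 0.60, adjusted p = 0.027) and the carboxypeptidase *AGBL2* fell (-2.84 ± 0.75, adjusted p = 0.00863). In PFF against SCNT4c 8 of 13 were higher and 2 lower, beside 78.2% of all features called. The higher genes were led by *VASH1*, which removes the final tyrosine (6.03 ± 0.76), *TTLL12* (6.00 ± 0.19) and *SIRT2* (6.00 ± 0.29). Both lower genes, *TTLL11* and *AGBL4*, averaged under 10 in PFF and reached the minimum mean only through SCNT4c. Without these, 8 of 11 were higher and 0 lower.

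Microtubule binding proteins (26 genes, 16 tested between embryo groups) had 5 of 16 called in SCNT4c-KG and 4 of 16 in SCNT4c-TDG against SCNT4c, where 37.2% and 33.3% of all features were called. *KIF2A*, a microtubule depolymerase, rose in SCNT4c-KG (1.68 ± 0.42, adjusted p = 0.00636) and in SCNT4c-TDG (3.64 ± 0.42, adjusted p = 1.65e-05), and its relative *KIF2C* fell in SCNT4c-TDG (-2.27 ± 0.31, adjusted p = 5.86e-05). *CLASP2*, a plus-end protein counted among the 4, averaged 72.5 in SCNT4c-TDG and 3.42 in SCNT4c, under the minimum mean there. The severing enzyme *SPAST* fell in SCNT4c-KG (-1.62 ± 0.42), and *MAPRE3*, an end-binding protein, was listed at 0 in SCNT4c-KG and at 39.4, 21.8 and 0 in SCNT4c, so these groups overlapped. *MAPRE3* is counted among the 5 (adjusted p = 0.0435) and reached the minimum mean only through groups other than SCNT4c-KG. In PFF against SCNT4c 11 of 17 were higher and 4 lower, beside 38.5% and 39.7% of all features, *MAPRE3* (6.87 ± 1.36) among the higher. Of these 15 called genes 4 averaged under 10 in 1 of the groups, among them *CLIP2* (4999 in PFF and 6.47 in SCNT4c) and *MAP1S* (694 and 2.63).

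*TTC5* encodes the protein that recognizes nascent tubulin and triggers the decay of tubulin mRNA when free tubulin is in excess. Its normalized counts were 4059, 10497 and 9721 in SCNT4c and 2722, 4022 and 5290 in SCNT8c. In SCNT4c-KG they were 632, 746 and 295, in SCNT4c-TDG 168, 186 and 199, and in PFF 358, 392 and 446. *TTC5* thus fell in SCNT4c-KG (-3.84 ± 0.42, adjusted p = 7.92e-06) and SCNT4c-TDG (-5.33 ± 0.42, adjusted p = 5.38e-07), and it was lower in PFF than in SCNT4c (-4.23 ± 0.38, adjusted p = 8.78e-05). Its level in SCNT4c-TDG was also below that in SCNT4c-KG (-1.49 ± 0.42, adjusted p = 0.0254). *TUBB* was higher than in SCNT4c in SCNT4c-KG and was not called in SCNT4c-TDG, and *TTC5* was lower in both.

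**Figure D4:**
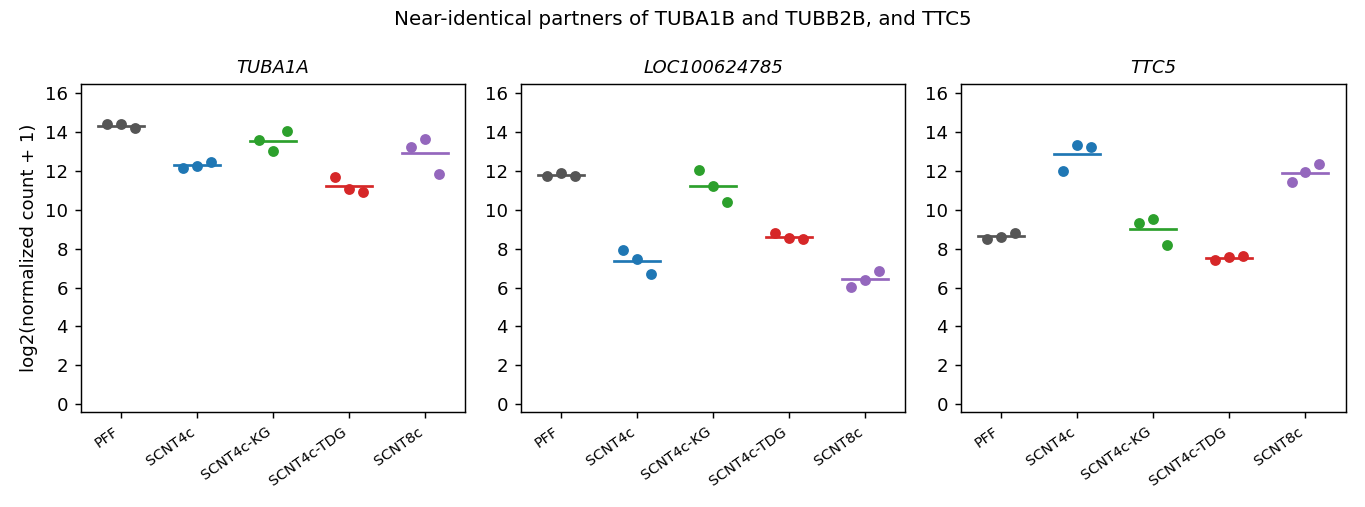
Levels of *TUBA1A*, *LOC100624785* and *TTC5* as log2(normalized count + 1), with 1 point per library, a line at the group mean and the 5 groups along the horizontal axis. *TTC5* lies between 2722 and 10497 normalized counts in SCNT4c and SCNT8c and at 746 or lower in the other 9 libraries.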

How the data were processed

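RNA was sequenced as 150-base read pairs from 15 libraries of 5 groups, made with SMARTer cDNA synthesis. The authors used Trimmomatic 0.39 for trimming and STAR 2.5.3a for alignment to Sscrofa11.1, kept reads that mapped uniquely, built transcripts with StringTie 2.1.2 and obtained counts per gene from HTSeq. The deposited values are a signal per feature, namely counts scaled by 1 factor per library. Every value was a whole number of reads times the worth of 1 read (tolerance 0.001), so reads could be recovered, giving 12354649 to 22868038 per library. Strand and batches are not given in the sources used here. The table had 43535 entries, of which 241 repeated a gene ID and were removed.

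Values were tested as log2(value + 1), where the mean over a fit's libraries reached 10, with limma 3.58.1 (trend, Benjamini-Hochberg over all features) in R 4.3.3. Embryo groups were fitted in 12 libraries and PFF with each embryo group in 6. Features were called at a fold change over 2 with an adjusted p under 0.05. A fold change on this scale understates that of low genes. Adjusted p-values are from limma unless another tool is named. With 3 against 3 libraries an exact permutation test cannot go below 0.1, and the p-values measure the spread between libraries, which nothing ties to separate animals. The 3 SCNT4c columns carried no unambiguous replicate number. Exon lengths and sequences came from the RefSeq annotation of Sscrofa11.1. Alternatives were pseudocounts of 0.1 and 10, filters, quantile normalization, an equal total per library, edgeR 4.0.16, DESeq2 1.42.0, other fits, the sum with assembled transcripts, a replicate block and each library left out. SCNT8c was described without single replicates, and the ratio of *TUBB* to all alpha genes was added, after seeing the data. The fits were tested on simulated data. The genes and lists were chosen with earlier results of these data known. Named were all genes with a row, the 5 known genes most like *TUBB4A*, the 3 called genes of largest change per list in the comparisons of SCNT4c with PFF, SCNT4c-KG and SCNT4c-TDG, *TTC5*, *KDM4A* and *TDG*.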

Additional observations from a re-analysis of the deposited data

How the results depend on the processing

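Leaving out each library in turn kept 2 genes called in SCNT4c-KG against SCNT4c, gave 0 to 1 in SCNT4c-TDG against SCNT4c, 2 to 3 in SCNT4c-TDG against SCNT4c-KG, 4 in PFF against SCNT4c, 3 to 4 against SCNT4c-KG, 4 against SCNT4c-TDG and 3 to 4 against SCNT8c. In SCNT4c-TDG against SCNT4c the count of 1 became 0 under quantile normalization, an equal total, edgeR and DESeq2 and 2 with assembled transcripts added, when the sum at the *TUBB6* locus entered. In SCNT4c-TDG against SCNT4c-KG the 3 called genes became 5 with a minimum mean of 50 and in the fit of these groups alone. Without the fold change limit PFF against SCNT4c-KG had 5. The cause of these changes was not tested.

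The directions that turned belonged to values that were not called. With each library left out, *TUBB* in SCNT4c-TDG against SCNT4c ranged from -0.19 (without SCNT4c library a) to 0.43, *TUBB2B* there from -0.076 (without SCNT4c library c) to 0.52, and *TUBB4A* in PFF against SCNT4c-TDG from -0.086 (without SCNT4c-TDG replicate 3) to 0.95. *TUBB* was also below 0, at -0.0016, without SCNT4c-TDG replicate 2. *TUBB4A* in PFF against SCNT4c-TDG was -0.28 with an equal total, -0.32 by edgeR and -0.39 by DESeq2. *TUBB6* in PFF against SCNT4c-KG was 1.05 under quantile normalization and 0.60 with assembled transcripts. Of 529 log2 fold changes of single genes under alternatives, 489 kept direction and call, 19 lost the call and 12 gained it.

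Undivided by length, the *TUBB* share of the beta genes was 95.6% in PFF and 97.9% in SCNT4c-TDG. The replicate numbers did not pair the libraries, with same-number correlations of deviations from -0.0547 to 0.188. With the number as a replicate block 5 genes were called in SCNT4c-TDG against SCNT4c-KG, as in the same fit without it, and 3, 4 and 4 in PFF against SCNT4c-KG, SCNT4c-TDG and SCNT8c. No paired analysis was possible with SCNT4c because its columns carry no usable numbers. *TUBB6*, *TUBA4A* in PFF and *TUBB4A* in SCNT4c rest on few reads.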
